A study of Mus musculus with 8 samples.

Results

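The kinases of the p38 and JNK cascades were followed in mouse macrophages derived from bone marrow, on 8 Affymetrix expression arrays. The set was chosen by gene symbol: Map3k7, Map2k3, Map2k6, Map2k4, Map2k7, Mapk14, Mapk8, Mapk9, Mapkapk2 and Mapkapk3, 10 genes in all. Of these, 9 were among the 18193 genes with a probe set annotated to 1 symbol, and Map2k7 was not analysed here. Together the 9 genes have 28 probe sets, and a gene's value was read from the brightest of its probe sets, on average over all arrays. The symbols were not picked from measured values, although the set was drawn up with earlier results of these data known.

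Wild-type macrophages and macrophages deficient in Tpl2 were each left unstimulated or treated with 1 μg/mL of LPS, the Escherichia coli 0111:B4 cell wall lipid that toll-like receptor 4 detects, with 2 arrays per group. Bone marrow cells of every group had been differentiated with macrophage colony-stimulating factor and purified by adherence. The labels used here give neither the duration of LPS treatment of these arrays nor how the deficiency was made, and no strain, age or number of animals. The 2 arrays per group are labelled as biological replicates, with no mention of separate mice, so p-values reflect only how far these samples differ, which may be technical. Throughout, levels are log2 RMA intensities, errors of group means are SDs over n = 2 arrays, and differences are log2 values ± standard error. A difference is said to pass where limma, fitted to all 8 arrays, gave an adjusted p (Benjamini-Hochberg, all genes) under 0.05.

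In the textbook pathway, a toll-like receptor signal reaches the kinase TAK1, encoded by Map3k7, through adaptors and ubiquitin chains. TAK1 phosphorylates the MAP kinase kinases MKK3 and MKK6 (Map2k3, Map2k6), which activate p38α (Mapk14), and MKK4 and MKK7 (Map2k4, Map2k7), which activate the JNKs (Mapk8 for JNK1, Mapk9 for JNK2). The p38 substrates MK2 and MK3 (Mapkapk2, Mapkapk3) in turn stabilise cytokine mRNAs with AU-rich elements. Tpl2 is a parallel MAP kinase kinase kinase, encoded by Map3k8, best known for switching on MEK and ERK in macrophages. These enzymes are controlled by phosphorylation, which an expression array does not measure, so all values below are mRNA signals.

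The Map3k8 signal, the check of the genotype labels, was 9.27 ± 0.01 in unstimulated wild-type and 8.28 ± 0.06 in unstimulated Tpl2-deficient cells, and 10.96 ± 0.07 and 9.96 ± 0.19 with LPS. Where its probe set lies relative to the change that made the cells deficient is not given in the labels. All 12 macrophage markers examined lay above the array median in every group. Of 44 measured markers of 8 other cell types, LPS raised 15 and lowered 2 in wild type, where 21.3% of all genes rose and 30.9% fell. In Tpl2-deficient cells LPS raised 9 and lowered 2, where 16.0% of all genes rose and 25.8% fell. Between the genotypes under LPS, 2 were higher and 3 lower in the deficient cells, where 8.01% of all genes were higher and 5.73% lower. The summed level of 8 neutrophil markers was 9.67 to 9.86 in the unstimulated arrays, 10.71 to 10.87 in wild-type LPS arrays and 10.04 to 10.21 in Tpl2-deficient LPS arrays. S100a8 was the brightest of them (8.79 and 8.46 at rest, 10.17 and 9.03 with LPS, in wild-type and Tpl2-deficient cells), and all of the others except Camp lay below the array median in every group. Over 6 stromal markers the sums were 9.10 to 9.98, 10.16 to 10.18 and 10.67 to 10.94 in the same order. Pdgfrb was the brightest of them with LPS (8.96 in wild type and 10.16 in Tpl2-deficient cells), while Col3a1 and Cxcl12 lay below the array median in every group. Col1a1, Col1a2 and Dcn lay above it in every group. Of the 6, only Pdgfrb passed in any comparison. Over 5 osteoclast markers the sums were 10.81 to 11.37, 11.60 to 11.91 and 12.32 to 12.46, with Calcr and Ocstamp below the median throughout. Acp5, the brightest under LPS, rose from 9.19 and 9.07 at rest to 11.14 and 12.17 in wild-type and Tpl2-deficient cells. Ctsk fell instead, from 10.73 and 10.14 to 10.02 and 9.26. Under LPS, Acp5 was higher and Ctsk lower in Tpl2-deficient cells. The 3' minus 5' log2 signal of Actb, a sign of RNA integrity, averaged 0.74 and 0.51 in wild-type cells without and with LPS and 0.88 and 0.65 in Tpl2-deficient cells. The part of these markers and of RNA integrity in the results below was not tested. The LPS-treated Tpl2-deficient pair had the widest spread, with a median SD of 0.129 over genes against 0.0649 to 0.0662 in the other groups, while the fit assumes equal spread.

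The sequences upstream of 5 of these genes are shown: Mapk14, Map2k3 and Mapkapk3, whose LPS responses differed between the genotypes, Mapkapk2, the relative of Mapkapk3 that moved the opposite way with LPS, and Map3k7, for the motif match its window holds. RefSeq sequences of the 250 bases before the most upstream start site were found for all 9 measured genes (GRCm38.p6). Capitals mark matches on either strand to any of 6 motifs: the AP-1 site TGANTCA, the CRE site TGACGTCA, a kappaB-type motif (GGG, any 2 bases, TTTCC), an interferon-response-like motif (GAAA, any 2 bases, GAAA), the CCAAT box and TATAAA. Mapk14 lies on the + strand at chr17:28691092-28691341, Map2k3 on the + strand at chr11:60931804-60932053, Mapkapk3 on the - strand at chr9:107289878-107290127, Mapkapk2 on the - strand at chr1:131097844-131098093 and Map3k7 on the + strand at chr4:31963857-31964106.
Mapk14: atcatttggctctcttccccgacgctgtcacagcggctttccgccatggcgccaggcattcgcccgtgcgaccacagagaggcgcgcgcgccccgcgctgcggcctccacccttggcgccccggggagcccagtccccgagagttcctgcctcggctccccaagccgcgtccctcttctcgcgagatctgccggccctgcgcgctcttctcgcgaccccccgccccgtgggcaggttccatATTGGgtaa
Map2k3: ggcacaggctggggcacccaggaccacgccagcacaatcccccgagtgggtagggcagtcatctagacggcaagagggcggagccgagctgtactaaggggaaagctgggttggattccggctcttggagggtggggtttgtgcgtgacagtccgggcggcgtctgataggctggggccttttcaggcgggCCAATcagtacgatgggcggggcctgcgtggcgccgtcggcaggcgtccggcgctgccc
Mapkapk3: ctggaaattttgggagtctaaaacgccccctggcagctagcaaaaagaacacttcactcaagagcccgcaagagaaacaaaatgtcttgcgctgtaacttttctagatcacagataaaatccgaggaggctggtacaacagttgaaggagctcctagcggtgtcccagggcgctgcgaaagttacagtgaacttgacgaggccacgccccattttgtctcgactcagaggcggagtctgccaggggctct
Mapkapk2: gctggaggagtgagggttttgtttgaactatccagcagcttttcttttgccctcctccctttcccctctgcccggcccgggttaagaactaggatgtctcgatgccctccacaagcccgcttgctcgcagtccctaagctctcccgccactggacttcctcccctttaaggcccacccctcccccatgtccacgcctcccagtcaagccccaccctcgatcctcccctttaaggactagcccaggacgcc
Map3k7: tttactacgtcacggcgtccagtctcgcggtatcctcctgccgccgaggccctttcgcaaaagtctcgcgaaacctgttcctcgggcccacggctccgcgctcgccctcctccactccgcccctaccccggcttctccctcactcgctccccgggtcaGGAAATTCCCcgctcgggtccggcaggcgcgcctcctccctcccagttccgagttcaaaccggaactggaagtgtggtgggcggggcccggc
Of the 9 windows, 3 held a CCAAT box (Mapk14, Mapk9 and Map2k3), a motif that 33.8% of 32851 windows of the same length hold. The kappaB-type match of Map3k7 begins at position -92 from the start, and 1.41% of windows hold one. An AP-1 match was found for 1 gene, Map2k6, against 6.75% of windows. The windows of Mapkapk2 and Mapkapk3 hold none of the 6 motifs, and no member window holds the CRE or the interferon-response-like letters, which 1.55% and 2.98% of windows hold, or TATAAA (12.4%). These are matches of letters and say nothing of binding.

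The first question was how LPS moved the cascade in wild-type macrophages. The substrate kinase gene Mapkapk2 rose 3.97-fold, Map2k4, the gene of the JNK-activating MKK4, 2.58-fold and the JNK2 gene Mapk9 1.49-fold. Map3k7 and Mapkapk3 fell 2.47-fold and 2.41-fold, and Mapk14, Map2k6 and Map2k3 by smaller amounts. In all, 3 of 9 rose, 5 fell and Mapk8 did not pass, against a background in which 52.2% of all genes passed, 21.3% upward and 30.9% downward. With arrays centred on the spiked-in hybridisation controls, the share of falls among all calls went from 59.2% to 76.2%, and the 9 kinases kept 3 rises and 5 falls. The median change of the 9 was -0.46, and that of all genes 0.04; the median size of change was 0.66 against 0.33. In bulk RNA of this kind, a change in the number of cells of a type and a change of RNA per cell cannot be told apart.

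In Tpl2-deficient macrophages all 9 passed, 4 upward and 5 downward, where 41.8% of all genes passed (16.0% upward and 25.8% downward). Mapk14 fell 4.10-fold, Mapkapk3 3.69-fold and Map2k3 2.40-fold. Mapkapk2 rose 3.51-fold, Map2k4 2.16-fold and Mapk9 2.04-fold. The median of the 9 was -0.64 (all genes 0.00), and the median size 1.11 against 0.25. Falls made up 61.8% of all calls and 79.6% with spike-in centring, where 3 of the 9 rose and 5 fell.

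**Figure D1:**
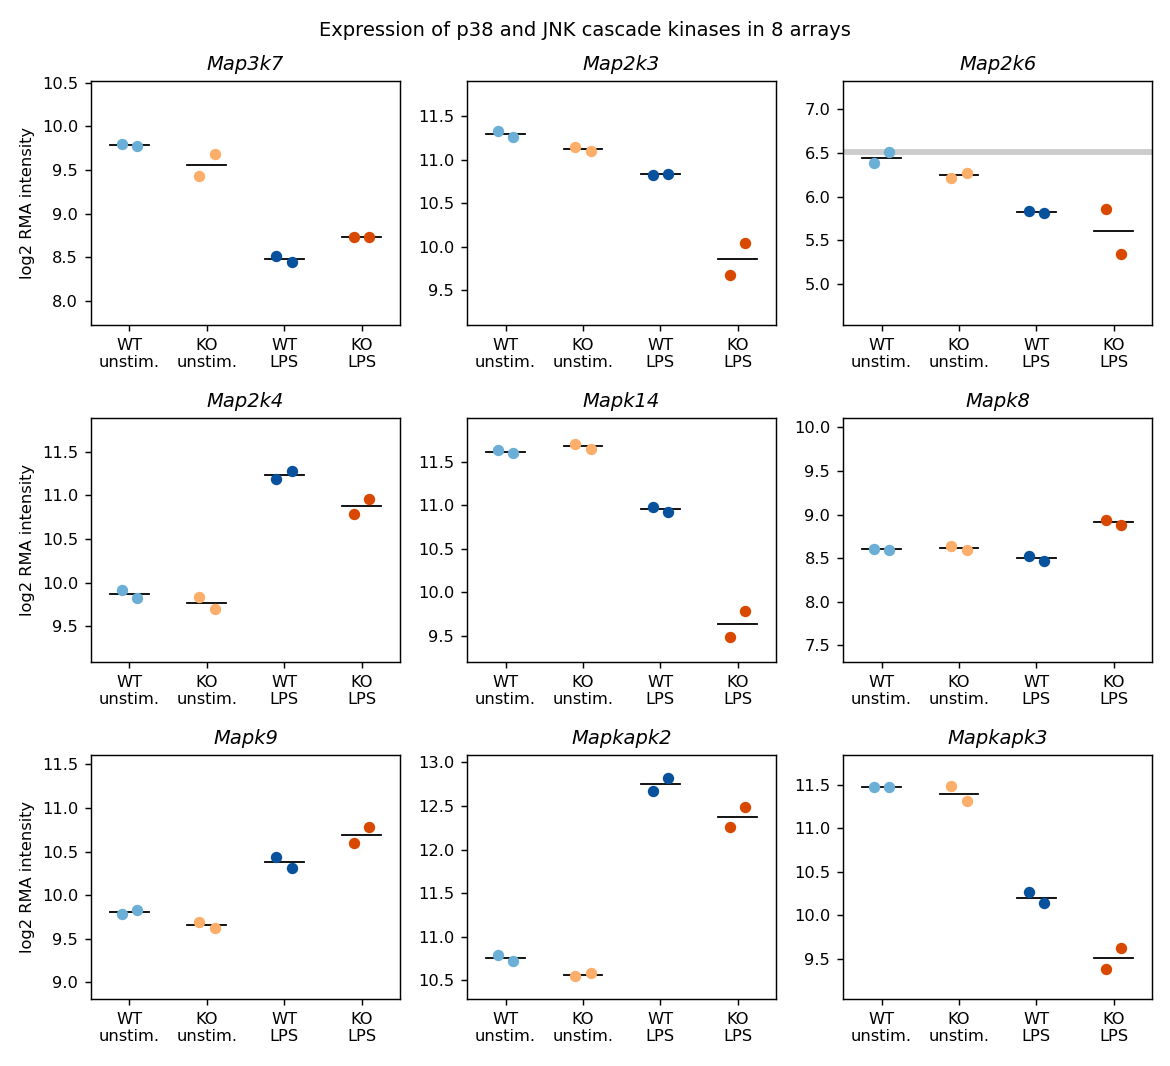
Each panel plots the log2 RMA intensity of 1 kinase gene in the 8 arrays (WT, wild type; KO, Tpl2-deficient; unstim., unstimulated); dots are arrays, bars are means of 2, every panel spans the same range of log2 units and the grey band is the range of array medians, 6.48 to 6.53. The LPS-treated Tpl2-deficient dots of Mapk14 (9.49 and 9.79) lie far under the wild-type LPS dots (10.98 and 10.93), while the unstimulated dots of both genotypes lie close together.

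At the top of the cascade, Map3k7 encodes TAK1, the kinase that feeds both arms and the IKK complex. Its arrays read 9.80 and 9.78 in unstimulated wild type, 9.43 and 9.69 in unstimulated Tpl2-deficient cells, 8.52 and 8.45 in wild type with LPS, and 8.73 in each Tpl2-deficient LPS array. The LPS-treated arrays were all lower than the unstimulated ones. It fell in wild type (-1.31 ± 0.11, limma adjusted p = 1.43e-06) and in Tpl2-deficient cells (-0.83 ± 0.11, adjusted p = 7.12e-05). This difference of responses, 0.48 ± 0.15, did not pass (adjusted p = 0.0844). The result rests on the probe set used: of the 6 Map3k7 probe sets, 2 fell in each genotype and 4 did not pass, with wild-type values from -1.31 to 0.26. The other probe set that fell lay under the array median in every group (3.29 to 3.96). So did those that gave 0.26 and 0.245 in wild type, where a change could have been missed. The remaining probe sets lay above the array median in every group and did not pass either. They gave -0.043 and -0.039 in wild type, and -0.38 and -0.08 in Tpl2-deficient cells. The mean of all 6 gave -0.26 in wild type and -0.35 in Tpl2-deficient cells.

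Map2k3 encodes MKK3, a dedicated p38 activator. Its arrays read 11.33 and 11.26 (wild type) and 11.15 and 11.10 (Tpl2-deficient) at rest, then 10.82 and 10.84 in wild type and 9.68 and 10.04 in Tpl2-deficient cells with LPS. The Tpl2-deficient LPS arrays were the lowest, with no overlap with any other group. The fall was -0.46 ± 0.12 in wild type (limma adjusted p = 0.00855) and -1.26 ± 0.12 in Tpl2-deficient cells (adjusted p = 5.92e-06). The wild-type call was lost under a 1.5-fold minimum and without wild-type unstimulated replicate 1 (-0.42, adjusted p = 0.0547; 0.000905 to 0.0547 over 20 alternatives) and did not pass in the second probe set, which gave -0.22 in wild type and -0.63 in Tpl2-deficient cells.

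Map2k6 encodes MKK6, the other p38 activator, and its signal was low. It read 6.38 and 6.51 in unstimulated wild type, 6.21 and 6.27 in unstimulated Tpl2-deficient cells, 5.84 and 5.81 in wild type with LPS, and 5.86 and 5.34 in Tpl2-deficient cells with LPS. All 4 group means lay under the array medians, so expression was not shown in any group. The measured falls were -0.62 ± 0.15 in wild type (limma adjusted p = 0.0045) and -0.64 ± 0.15 in Tpl2-deficient cells (adjusted p = 0.00434). The 2 LPS-treated Tpl2-deficient arrays were far apart (SD 0.37), and leaving out either moved that fall to between -0.90 and -0.38.

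Map2k4 encodes MKK4, which phosphorylates the JNKs. Its arrays read 9.91 and 9.83 in unstimulated wild type and 9.84 and 9.69 in unstimulated Tpl2-deficient cells, and rose to 11.19 and 11.28, and to 10.79 and 10.96, with LPS. Every LPS array was above every unstimulated one. The rises were 1.37 ± 0.11 in wild type (limma adjusted p = 9.69e-07) and 1.11 ± 0.11 in Tpl2-deficient cells (adjusted p = 6.3e-06), and the second probe set passed as well with 1.37 and 0.86.

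Mapk14 encodes p38α, the main p38 of macrophages. Its arrays read 11.63 and 11.60 in unstimulated wild type and 11.71 and 11.64 in unstimulated Tpl2-deficient cells. With LPS they read 10.98 and 10.93 in wild type, and 9.49 and 9.79 in Tpl2-deficient cells. The 4 unstimulated arrays lay close together, and the LPS-treated groups lay below them without overlapping each other. The fall was -0.66 ± 0.11 in wild type (limma adjusted p = 0.000503) and -2.04 ± 0.11 in Tpl2-deficient cells (adjusted p = 6.38e-08). It also rests on the probe set used, the brightest of 6. In wild type 1 other probe set fell (-0.42), 1 rose (0.28) and 3 did not pass, and the mean of all 6 gave -0.05, which did not pass (adjusted p = 0.661; 3.47e-05 to 0.661 over 20 alternatives). In Tpl2-deficient cells 1 other fell (-0.84) and 4 did not pass, and the mean of all 6 passed at -0.51.

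Mapk8 encodes JNK1. Its arrays read 8.61 and 8.59 in unstimulated wild type, 8.63 and 8.59 in unstimulated Tpl2-deficient cells, 8.52 and 8.47 in wild type with LPS, and 8.94 and 8.88 in Tpl2-deficient cells with LPS. The range was narrow, with the Tpl2-deficient LPS arrays above all others. The wild-type change was -0.10 ± 0.10 (limma adjusted p = 0.38) and turned to 0.14 when quantile normalization was repeated. The Tpl2-deficient change was 0.30 ± 0.10 (adjusted p = 0.0271). That call was lost under 6 of 20 alternatives, among them spike-in centring (0.06) and leaving out Tpl2-deficient unstimulated replicate 1 (0.32, adjusted p = 0.0943) or 2 (0.27, adjusted p = 0.14), and the mean of all probe sets turned it to -0.05 (adjusted p 0.00376 to 0.782 over all of them). Another Mapk8 probe set, second in brightness, differed from it: it fell by 1.09 ± 0.11 in wild type (limma adjusted p = 4.81e-06) and by 0.40 ± 0.11 in Tpl2-deficient cells (adjusted p = 0.0104).

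Mapk9 encodes JNK2. Its arrays read 9.78 and 9.83 in unstimulated wild type and 9.69 and 9.63 in unstimulated Tpl2-deficient cells, against 10.44 and 10.31, and 10.60 and 10.78, with LPS. Every LPS array was above every unstimulated one. The rises were 0.57 ± 0.11 in wild type (limma adjusted p = 0.000767) and 1.03 ± 0.11 in Tpl2-deficient cells (adjusted p = 9.06e-06). The wild-type rise, 1.49-fold, was lost under a 1.5-fold minimum. Of 3 probe sets, 2 rose in wild type and all 3 in Tpl2-deficient cells.

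Mapkapk2 and Mapkapk3 encode the related p38 substrates MK2 and MK3. Mapkapk2 arrays read 10.79 and 10.72 in unstimulated wild type and 10.54 and 10.58 in unstimulated Tpl2-deficient cells, against 12.68 and 12.82, and 12.26 and 12.49, with LPS. Mapkapk3 arrays read 11.47 and 11.47, and 11.48 and 11.31, at rest, and 10.27 and 10.14, and 9.39 and 9.63, with LPS. The genes moved in opposite directions in both genotypes, without overlap of treated and untreated arrays. Mapkapk2 rose by 1.99 ± 0.11 in wild type and 1.81 ± 0.11 in Tpl2-deficient cells (limma adjusted p = 5.51e-08 and 1.24e-07). Mapkapk3 changed by -1.27 ± 0.12 and -1.89 ± 0.12 (limma adjusted p = 3.08e-06 and 1.34e-07), and its second probe set by -0.81 and -1.43. Mapkapk2 has 1 probe set, so it has no such check.

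**Figure D2:**
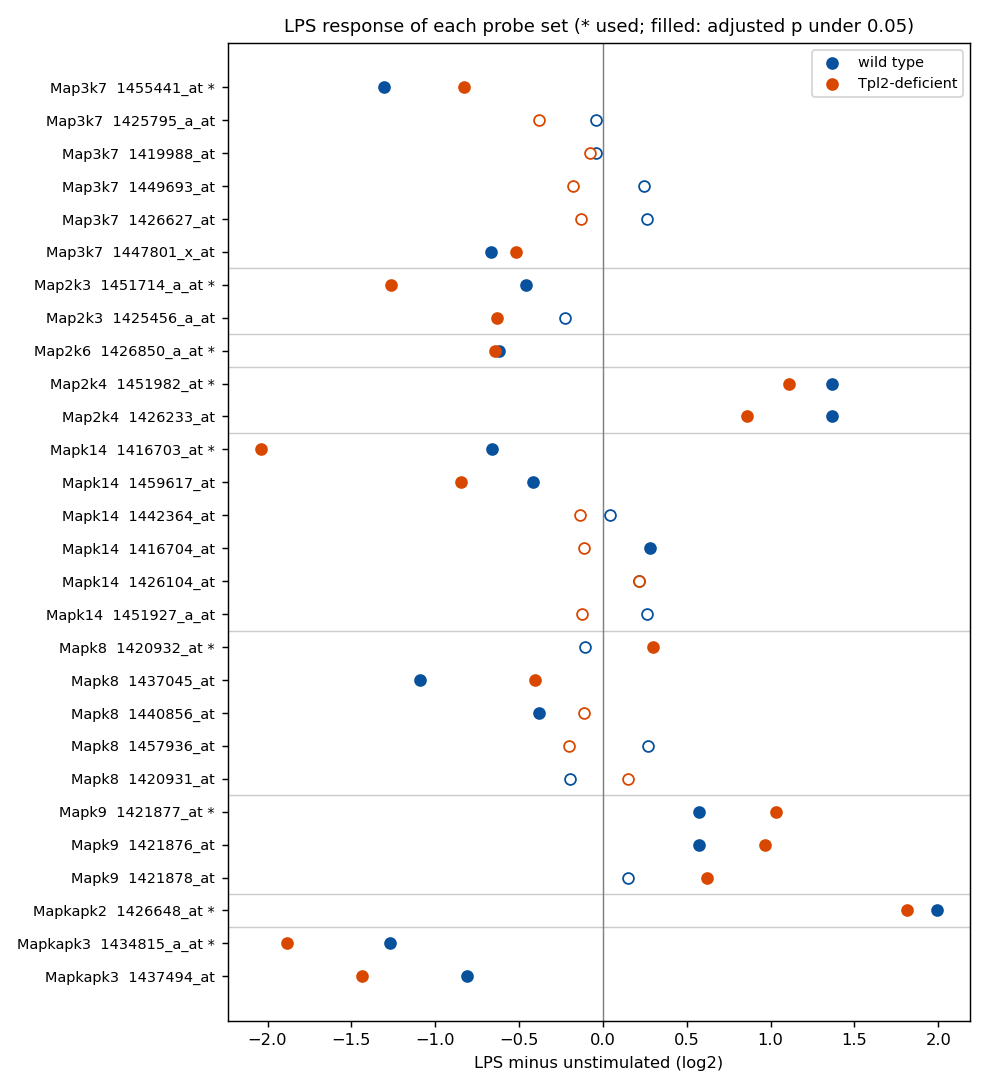
The LPS minus unstimulated log2 difference is plotted for each of the 28 probe sets in wild-type (blue) and Tpl2-deficient (orange) macrophages, grouped by gene and ordered within a gene by mean level; an asterisk marks the probe set used and filled dots passed limma at an adjusted p under 0.05 over all probe sets. Probe sets of Mapk9, Map2k4 and Mapkapk3 lie on 1 side of 0, while those of Mapk14, Mapk8 and Map3k7 spread across it.

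The next question was what Tpl2 deficiency changed at rest. None of the 9 kinases passed limma at an adjusted p under 0.05, and 0 had an unadjusted p under 0.05, where 0.500% of all genes passed (0.154% higher and 0.346% lower). With spike-in centring the lower share of those calls went from 69.2% to 39.6%. The differences ran from -0.23 ± 0.11 for Map3k7 (95% interval -0.47 to 0.01) to 0.06 ± 0.12 for Mapk14 (-0.19 to 0.31). The intervals reach from -0.53, the lower bound for Map2k6, to 0.31, the upper bound for Mapk14. For each kinase, differences within its own interval are not excluded. The median of the 9 was -0.14, and that of all genes -0.00, or 0.12 with spike-in centring.

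Under LPS, 5 of the 9 kinases differed between the genotypes. Mapk14 was 2.49-fold lower in Tpl2-deficient cells, Map2k3 1.96-fold, Mapkapk3 1.62-fold and Mapkapk2 1.29-fold lower, and Mapk8 1.33-fold higher. Among all genes 13.7% passed, 8.01% higher and 5.73% lower. With spike-in centring the calls of Mapk8 and Mapkapk2 were lost and 3 kinases remained, all lower. The comparison shares its arrays with the LPS responses above.

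By the probe set used for each gene, the 3 larger differences lie in the p38 arm. Mapk14 stood at 10.95 ± 0.04 in wild type and 9.64 ± 0.21 in Tpl2-deficient cells (-1.31 ± 0.11, limma adjusted p = 1.89e-05), Map2k3 at 10.83 ± 0.01 and 9.86 ± 0.26 (-0.97 ± 0.12, adjusted p = 0.000278), and Mapkapk3 at 10.20 ± 0.09 and 9.51 ± 0.17 (-0.69 ± 0.12, adjusted p = 0.00203). Both Tpl2-deficient arrays were below both wild-type arrays for each gene. With 2 arrays per group, lack of overlap, here and above, says little. Between the genotypes at rest, 6 of the 9 kinases did not overlap either, and 0 passed. These calls were kept under all 20 alternatives other than single probe sets, with ranges of -1.46 to -0.41, -1.15 to -0.79 and -0.81 to -0.57. The second probe sets of Map2k3 (-0.72) and Mapkapk3 (-0.56) passed too, whereas none of the other 5 Mapk14 probe sets did (-0.42 to 0.03).

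The smaller differences were less stable. Mapk8 differed by 0.41 ± 0.10 (limma adjusted p = 0.0143), and lost its call under 6 of 20 alternatives, including without wild-type LPS replicate 1 (adjusted p = 0.0709) or 2 (adjusted p = 0.119; 0.005 to 0.119 over all). Its second probe set passed with 0.85 ± 0.11 (limma adjusted p = 0.0002735), while 3 of the 5 Mapk8 probe sets did not pass (the lowest at -0.25). Mapkapk2 differed by -0.37 ± 0.11 (limma adjusted p = 0.0485) and lost its call under 14 of 20 alternatives (adjusted p 0.015 to 0.305), 7 of them the omission of 1 array, every array except Tpl2-deficient LPS replicate 2. The remaining kinases did not pass: Map2k4 was -0.36 ± 0.11 (adjusted p = 0.0511), Mapk9 0.32 ± 0.11 (0.0769), Map3k7 0.25 ± 0.11 (0.18) and Map2k6 -0.22 ± 0.15 (0.426). Map2k4 and Mapk9 each passed under 4 of 20 alternatives (adjusted p down to 0.0231 and 0.03), among them testing only genes above the median level. Leaving out 1 Tpl2-deficient LPS array was enough for each: replicate 2 for Map2k4 (-0.45, limma adjusted p = 0.0239) and replicate 1 for Mapk9 (0.40, adjusted p = 0.03). Without replicate 1 Map2k6 passed too (-0.49, adjusted p = 0.0145), and without replicate 2 it was 0.0373. The 95% intervals of these 4 kinases were -0.60 to -0.12, 0.08 to 0.55, 0.01 to 0.49 and -0.55 to 0.10.

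**Figure D3:**
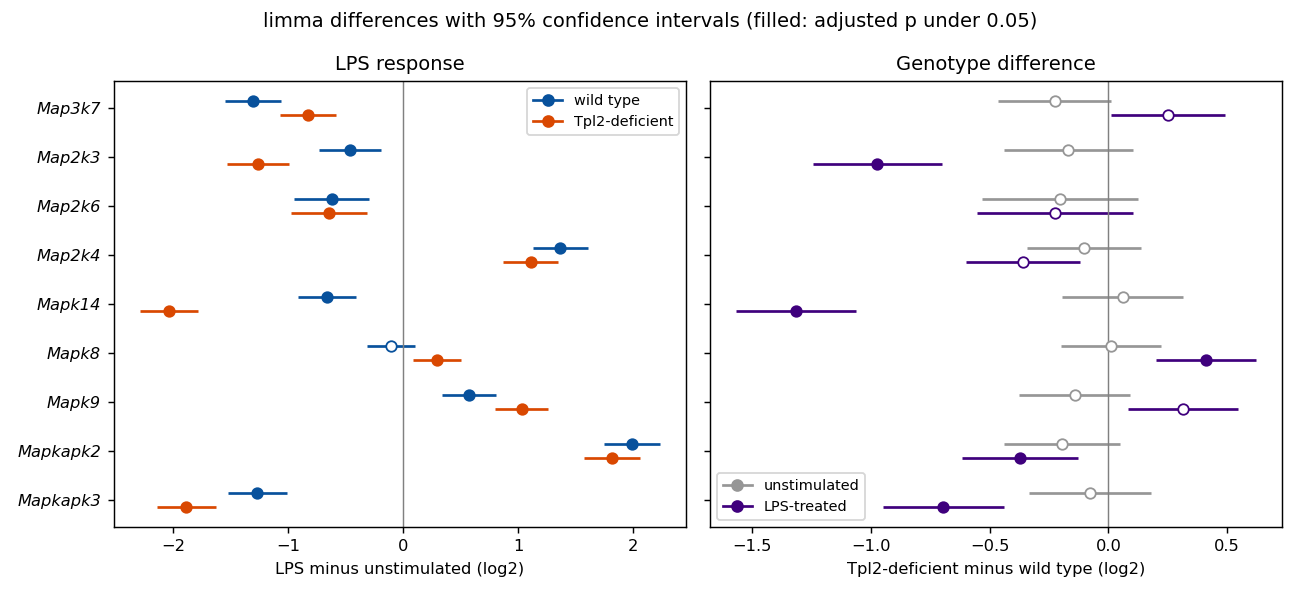
Dots are limma log2 differences and lines their 95% confidence intervals for the 9 measured kinases; the left panel shows LPS minus unstimulated in wild-type (blue) and Tpl2-deficient (orange) cells, and the right panel Tpl2-deficient minus wild type at rest (grey) and with LPS (purple), filled where the adjusted p was under 0.05. All grey dots are open, and the purple dot of Mapk14 lies farthest from 0, at -1.31.

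The test of whether the LPS responses themselves differed passed for 3 of the 9, all with a more negative response in Tpl2-deficient cells, where 8.59% of all genes passed (5.72% more positive and 2.87% more negative). For Mapk14 the difference of responses was -1.37 ± 0.16 (limma adjusted p = 0.000435), for Map2k3 -0.80 ± 0.17 (0.0162) and for Mapkapk3 -0.62 ± 0.16 (0.0424). The Mapk14 call was kept under all 19 alternatives (-1.52 to -0.46), but its other 5 probe sets did not pass (-0.43 to 0.00). That of Map2k3 was lost without wild-type unstimulated replicate 2, either Tpl2-deficient unstimulated array or either wild-type LPS array (5 of 8 omissions, -0.83 to -0.77, adjusted p up to 0.0734), and its second probe set gave -0.41 ± 0.16, which did not pass (limma adjusted p = 0.184). That of Mapkapk3 was lost under 10 of 19 alternatives, among them the omission of any array except Tpl2-deficient LPS replicate 2 (adjusted p 0.0151 to 0.164 over all). The second Mapkapk3 probe set passed, at -0.63 ± 0.16 (limma adjusted p = 0.0397). With spike-in centring the share of negative values among all calls went from 33.5% to 52.4%, and 2 of the kinases passed.

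Mapk8, Mapk9 and Map3k7 gave positive values that did not pass, 0.40 ± 0.14 (limma adjusted p = 0.0981), 0.46 ± 0.15 (0.0875) and 0.48 ± 0.15 (0.0844). All 3 passed when only genes above the median level were tested, where 6 of the kinases passed. The second Mapk8 probe set passed with 0.69 ± 0.15. For Map3k7, the mean of all probe sets turned the value to -0.10. Mapkapk2, Map2k4 and Map2k6 gave -0.18 ± 0.16, -0.26 ± 0.15 and -0.02 ± 0.21.

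The rest of the pathway was read from lists drawn up by role. Their counts stand beside these shares of all genes: with LPS, 21.3% rose and 30.9% fell in wild type. In Tpl2-deficient cells 16.0% rose and 25.8% fell. Between the genotypes 0.500% passed at rest, and under LPS 8.01% were higher and 5.73% lower. For the difference of responses 8.59% passed. Of the 5 other p38 and JNK family genes (Mapk10, Mapk11, Mapk12, Mapk13, Mapkapk5), Mapk10, Mapk12 and Mapk13 lay under the array median in every group, so expression was not shown and a change could have been missed. Of the 5, 1 rose in wild type with LPS, 0 passed limma in Tpl2-deficient cells (1 at an unadjusted p under 0.05), and the medians were 0.17 and 0.11. The riser was Mapk11, the gene of p38β, from 6.03 ± 0.09 to 6.95 ± 0.09 (0.92 ± 0.13, limma adjusted p = 7.75e-05), a lower bound because its unstimulated level is under the array median. It was also the 1 of the 5 that was lower in Tpl2-deficient than in wild-type cells under LPS (-0.48 ± 0.13, limma adjusted p = 0.0265, also a lower bound).

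Among 8 TAK1 partners and ubiquitin-arm genes, 3 rose and 2 fell with LPS in each genotype. Between the genotypes 0 passed limma, at rest (0 at an unadjusted p under 0.05) or under LPS (1). With 0.500% and 13.7% of all genes passing there, 0 of 8 is near the background. The adaptor ligase gene Traf2 rose by 1.93 ± 0.13 in wild type and 1.91 ± 0.13 in Tpl2-deficient cells. Tab2, which encodes a ubiquitin-binding TAK1 partner, rose by 1.13 ± 0.11 and 0.86 ± 0.11. The gene of the IKK regulatory subunit, Ikbkg, fell by 0.85 and fell by 0.90, and that of the TAK1 activator, Tab1, changed by -0.66 and -0.65.

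Of 14 measured other MAP3 kinases, 2 rose and 8 fell in wild type and 1 rose and 8 fell in Tpl2-deficient cells, with medians of -0.34 and -0.43. The largest of these falls in each genotype was that of Map3k4, which encodes MEKK4, at -2.83 in wild type, a lower bound because the LPS level lies under the array median, and -2.17 in Tpl2-deficient cells. Map3k1, the MEKK1 gene, fell by 2.07 in wild type. Map3k12 fell by 1.70 in Tpl2-deficient cells. The rises were Taok3 (0.61 ± 0.14) and Map3k5, which encodes the stress kinase ASK1 (0.53 ± 0.12), in wild type and Map3k20 (0.34 ± 0.12) in Tpl2-deficient cells. Under LPS, 3 were higher in Tpl2-deficient cells, led by Map3k4 (0.66 ± 0.16, again a lower bound) and Map3k1 (0.50 ± 0.11), and Map3k6 was lower (-0.43 ± 0.12). Map3k20 was the 1 whose responses differed (0.65 ± 0.17, limma adjusted p = 0.041).

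Of 6 scaffold and linker genes, 1 rose, 2 fell and 3 did not pass in wild type, and 0 rose, 3 fell and 3 did not pass in Tpl2-deficient cells. Arrb2, the β-arrestin 2 gene, changed by -1.87 and -2.30, and was lower in Tpl2-deficient than in wild-type cells under LPS (-0.59 ± 0.10, limma adjusted p = 0.00172). The JNK-interacting scaffold gene Spag9 changed by -0.49 and -0.60. Mapk8ip2 was the riser in wild type (0.37 ± 0.13). For the difference of LPS responses, 0 of the 6 passed limma and 1 had an unadjusted p under 0.05.

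The listed phosphatases of p38 and JNK showed the widest range. Of 11, 5 rose and 2 fell in wild type, and 5 rose and 3 fell in Tpl2-deficient cells. Dusp2 rose by 4.36 ± 0.11 and 4.71 ± 0.11, and Dusp16, a phosphatase with preference for JNK and p38, by 3.66 ± 0.12 and 2.96 ± 0.12. Dusp22 changed by -1.45 in wild type and -1.41 in Tpl2-deficient cells, and Ppm1d by -0.99 in wild type. Dusp4 changed by -2.61 in Tpl2-deficient cells, to 6.51 ± 0.48, under the array median, so this is a lower bound. Under LPS 3 were lower in Tpl2-deficient cells and 0 higher: Dusp4 (-3.16 ± 0.18, a lower bound), Dusp1, the main p38 phosphatase of macrophages (-1.62 ± 0.11), and Dusp16 (-0.80 ± 0.12). The same 3 also had a more negative LPS response in Tpl2-deficient cells, by -2.72 ± 0.26 (again a lower bound), -1.41 ± 0.16 and -0.70 ± 0.18 (limma adjusted p = 8.57e-05, 0.000329 and 0.0335).

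Of 16 measured substrates and effectors, 2 rose and 9 fell in wild type, and 0 rose and 8 fell in Tpl2-deficient cells. Mknk2, the gene of an eIF4E kinase, changed by -4.01 and -3.78, and the transcription factor gene Mef2d by -2.87 and -3.21. Zfp36, which encodes tristetraprolin, the AU-rich mRNA decay factor that MK2 phosphorylates, rose by 1.71 ± 0.10 in wild type, and Atf7 by 0.99 ± 0.15, a lower bound. Under LPS, the genotypes differed for 6 of them, 3 in each direction. Zfp36 was lower in Tpl2-deficient cells (-1.55 ± 0.10, limma adjusted p = 1.35e-06) and so was Atf7 (-0.65 ± 0.15), while the MSK1 gene Rps6ka5 was higher by 1.09 ± 0.17 and Creb1 by 0.66 ± 0.14. The LPS responses of Zfp36 (-1.48 ± 0.13, limma adjusted p = 7.4e-05) and Rps6ka5 (0.87 ± 0.24, adjusted p = 0.0477) differed between the genotypes. Jun, an AP-1 subunit gene, changed by -1.47 and -1.74 with LPS, and its genotype difference under LPS was -0.64 ± 0.11. Jun was chosen for mention after its values were seen.

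For comparison, 4 genes of the ERK arm were measured (Map3k8, Map2k1, Map2k2, Braf). Map2k1, the MEK1 gene, rose from 11.18 ± 0.01 to 12.57 ± 0.01 in wild type and from 11.19 ± 0.07 to 12.31 ± 0.27 in Tpl2-deficient cells, and Map3k8 rose by 1.68 ± 0.11 in each. Map2k2 changed by -0.35 and Braf by -0.40 in wild type. Under LPS Braf was higher in Tpl2-deficient cells (0.49 ± 0.13, limma adjusted p = 0.0327). At rest, of all the list genes in these 7 groups, only Map3k8 itself passed.

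**Figure D4:**
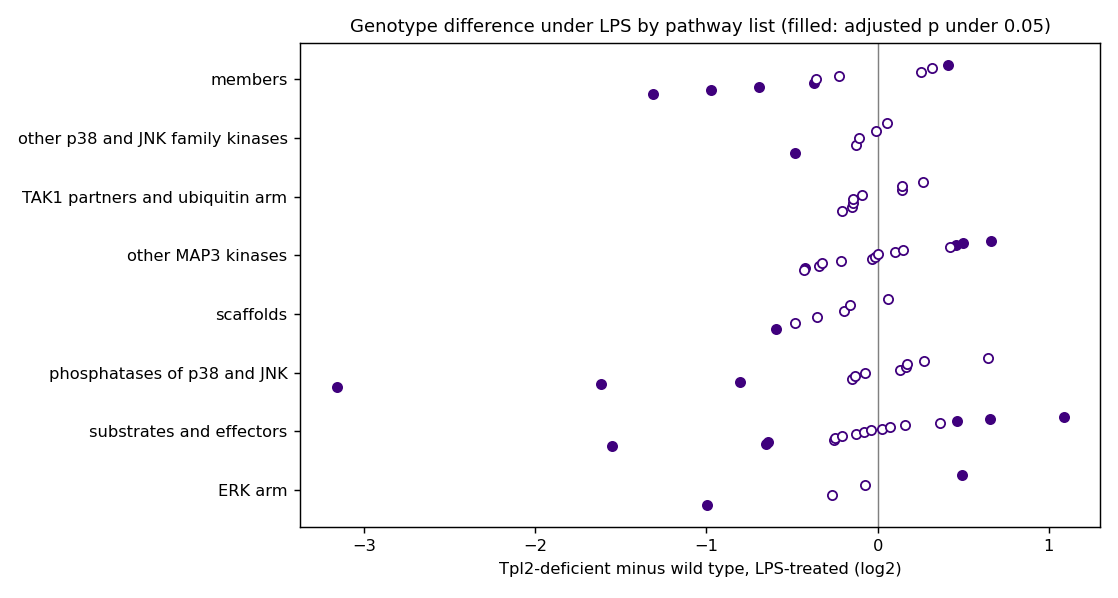
Each dot is 1 gene's log2 difference, Tpl2-deficient minus wild type, in LPS-treated macrophages, by pathway list (members are the 9 measured kinases); filled dots passed limma at an adjusted p under 0.05. The phosphatase Dusp4 lies lowest (-3.16) and 8 TAK1 partners and ubiquitin-arm genes lie near 0 with no filled dot, where 13.7% of all genes passed.

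The genes whose profile over the 8 arrays was nearest to each of the 2 kinases with the widest range of group means were also listed, by the root mean square difference of centred log2 values. For Mapkapk2 (range 2.18) they were Trip13 (0.0783), Traf2 (0.0834) and Tlr6, a toll-like receptor gene (0.089). For Mapk14 (range 2.04) they were P2ry6, the gene of a nucleotide receptor (0.0695), Tlr4, the LPS receptor gene (0.0809), and Cln8 (0.105). Tlr4 stood at 10.21, 10.32, 9.50 and 8.08 in unstimulated wild-type, unstimulated Tpl2-deficient, LPS-treated wild-type and LPS-treated Tpl2-deficient cells. The nearest genes share the arrays and the normalization with the kinase, and were taken from 18193 by their likeness, so no test applies.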

How the data were processed

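RNA from 8 samples (4 groups of 2) was hybridised to single-colour Affymetrix arrays. The deposited values are log2 intensities of 45101 probe sets; per the submitters' processing notes the authors used GCOS and RMA, whose versions are not given in the sources used here. RMA equalises the arrays' distributions, so a change shared by most genes would not show. The log2 scale fits the file's range (2.67 to 15.3). No value was filtered.

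Probe sets were paired with symbols through the platform's annotation; 34945 list 1 symbol and gave 18193 genes, each read from its brightest probe set. limma 3.58.1 (R 4.3.3; lmFit then eBayes) fitted 4 group means to all 8 arrays and gave two-sided tests, 4 residual and 6.87 prior degrees of freedom, in 5 comparisons, with Benjamini-Hochberg adjustment over all genes. The code was tested on simulated data. Arrays have no read depth, so their number limits the precision. The files hold no detection calls; a change from or to a group mean under the array median (6.48 to 6.53) is read as a lower bound.

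The kinases, lists and tests were chosen with earlier results of these data known. All 9 measured kinases are named; of the other lists, up to 2 rises and 2 falls per comparison among genes that passed, unless said otherwise. Alternatives covered probe set choice, scaling, filtering, variance model, array weights, the arrays fitted, a replicate block, a 1.5-fold minimum and leaving out each array. Promoter sequences are from RefSeq (GRCm38.p6).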

Additional observations from a re-analysis of the deposited data

Results flagged for a closer look

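The LPS responses of 3 kinases differed between the genotypes by the limma test of the difference itself, each more negative in Tpl2-deficient than in wild-type macrophages. The difference was -1.37 for Mapk14, -0.80 for Map2k3 and -0.62 for Mapkapk3 on the log2 scale. The calls of Map2k3 and Mapkapk3 were lost under 5 and 10 of 19 alternatives. For Mapk14, the other 5 probe sets did not pass. The second probe set of Mapkapk3 passed, and that of Map2k3 did not. With 2 arrays per group, single arrays could not be examined as outliers.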

How the results depend on the processing

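Of 25 kinase differences that passed, 17 kept direction and call under every alternative other than single probe sets; of 20 that did not pass, 8 did. The causes of the changes below were not tested.

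Under LPS, 5 kinases differed by genotype, but 3 with spike-in centring, array weights, only the arrays compared or a 1.5-fold minimum, 4 with median centring, 6 with the mean of all probe sets, 7 with only genes above the median level or a mean-variance trend, and 3 to 6 with an array left out. The responses of 3 differed, but of 6 among genes above the median level (fewer genes tested) and of 1 to 4 with an array left out; the LPS counts of 8 and 9 became 7 to 8 and 8 to 9. Map2k6 was not tested among genes above the median level, and counts of kinases were not formed from single probe sets. The labels do not say whether the replicate numbers pair the samples. Deviations of same-numbered arrays correlated at -0.12 to 0.10, which cannot exclude pairing. The replicate block moved 2 calls: Mapkapk2 under LPS (-0.37, adjusted p = 0.0547) and the Mapkapk3 difference of responses (-0.62, adjusted p = 0.0571); calls over all genes went from 9499, 7596, 91, 2500 and 1563 to 9373, 7509, 85, 2388 and 1454 in the order of the report.

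Directions turned as follows. With the mean of all probe sets, Mapk8 in Tpl2-deficient cells with LPS became -0.0545, and Map3k7 became -0.139 by genotype under LPS and -0.0951 for the difference of responses. With quantile normalization repeated, Mapk8 in wild type became 0.144 and the Map2k6 difference of responses 0.0081. With median centring, Mapk8 at rest became -0.0239 and the Map2k6 difference of responses 0.0169. With spike-in centring, Mapkapk3 and Map2k4 at rest became 0.0425 and 0.0181. With an array left out, ranges crossing 0 were -0.009 to 0.0339 for Mapk8 and -0.165 to 0.0089 for Mapkapk3 at rest, -0.486 to 0.0373 for Map2k6 under LPS and -0.282 to 0.241 for its difference of responses.

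Single probe sets other than the one used turned these values, which did not pass unless noted. With LPS in wild type, Map3k7 was 0.26 and 0.245 in 2 probe sets, Mapk14 0.283 (passed), 0.214, 0.0439 and 0.262 in 4, and Mapk8 0.27 in 1. With LPS in Tpl2-deficient cells, Mapk14 was 0.217 in 1 and Mapk8 -0.405 (passed), -0.112 and -0.203 in 3. At rest by genotype, Map2k4 was 0.003, Map3k7 0.172 and 0.235, Mapk14 -0.0359, Mapk8 -0.149 and Mapkapk3 0.0687. Under LPS by genotype, Map3k7 was -0.208, -0.481, -0.22 and -0.19 in 4, Mapk14 0.0326 and Mapk8 -0.254. For the difference of responses, the same 4 of Map3k7 gave -0.0381, -0.341, -0.393 and -0.425, Mapk14 0.0036 and Mapk8 -0.473.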
